A study of Oryza sativa with 7 samples.

Results

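Aquaporin genes were examined as 1 gene family in the transcriptomes of mir156 mutant rice. The members are all genes whose annotation contains the word aquaporin, which gave 30 of the 26168 genes listed over 4 tables. Each table compares a mutant with its wild type (WT), and the family had 26 members in each of the 2 culm tables, 25 in the embryo table and 26 in the shoot table. The plants were Nipponbare, a japonica cultivar. Unelongated culms, the short stem base of a seedling, came from 20-day-old seedlings of 3 genotypes: WT, mir156abckl (5 MIR156 genes mutated) and mir156defghi (6 mutated). Embryos of fresh wet seeds were taken just after seed filling from WT and mir156abcdfghikl plants (10 mutated). Shoots came from 2-week-old seedlings of WT and mir156abcdfghikl. The mutations were made with CRISPR/Cas9, and the label of each mutant group carries a single line code. The methods give 3 biological repeats per group, but the deposited tables hold 1 FPKM value per group (fragments scaled to transcript length and library size). No value is given an error here, read depth is unknown, and no difference below was tested or set against the variation between repeats.

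Aquaporins are membrane channels that let water move along osmotic gradients, and some of them also conduct small solutes such as glycerol or silicic acid. Plants carry large families, divided into plasma membrane intrinsic proteins (PIPs), tonoplast intrinsic proteins (TIPs) of the vacuole, nodulin-like intrinsic proteins (NIPs) and small basic intrinsic proteins (SIPs). They are known for their parts in root water uptake, in the expansion of growing cells and in the entry of water into germinating seeds. miR156 is a microRNA that represses SPL transcription factor genes, among them IPA1. Only 1 member, LOC_Os03g20410, is assigned to a subfamily by its description (aquaporin SIP2-1). SIPs lie in the membrane of the endoplasmic reticulum in Arabidopsis. The other members are all described as aquaporin protein, so they are named by locus.

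The samples were first checked by genes that mark them. IPA1 (LOC_Os08g39890) was higher in every mutant than in its WT, from a ratio of 1.47 in mir156abckl culms to 31.5 in shoots. The summed FPKM of oleosin genes, which coat the oil bodies of seeds, was 34635 in WT embryos and 28563 in mutant embryos, and at most 8.06 in the other groups. Late embryogenesis abundant genes, the other embryo marker, marked embryos less sharply. They summed to 20424.5 FPKM in WT embryos and 16364 in mutant embryos, but also to 500 in WT culms and 1075 in WT shoots. In mutant shoots they summed to 113 FPKM. Knotted-type homeobox genes, expressed in shoot meristems, summed to 239 FPKM in WT culms and 490 in WT shoots, so they do not tell these tissues apart. Genes for chlorophyll A-B binding proteins summed to 50102 FPKM in WT shoots and 8390 in mutant shoots. Embryo groups also carried messages of endosperm storage proteins, with 67896 FPKM in WT and 52840 in the mutant over 34 glutelin and prolamin genes.

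The levels of the aquaporin genes ran from 0.0734 to 4621 FPKM, and a few members held most of the message in each tissue. The 5 most abundant members held 73.6% of the summed aquaporin FPKM in WT culms, 92.6% in WT embryos and 72.7% in WT shoots. The tissues shared 3 of these 5: LOC_Os02g44630, LOC_Os03g05290 and LOC_Os07g26690. Tables were normalized separately, so levels set across tissues are descriptions. WT culms were listed in both culm tables at values that differed by a constant factor of 0.994 to 0.995 over the members, and the WT culm values below come from the mir156abckl table unless they stand beside mir156defghi.

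LOC_Os02g44630 (chromosome 2) was the most abundant member in WT culms, with 601 FPKM, and had 606 FPKM in WT embryos and 767 in WT shoots. LOC_Os03g05290 (chromosome 3) had 370 FPKM in WT culms, 873 in WT embryos and 885 in WT shoots. LOC_Os07g26690 (chromosome 7) had 373, 735 and 740 FPKM in the same order. These 3 genes were thus high wherever they were measured. LOC_Os04g47220, the leading member of WT shoots with 894 FPKM, had 448 FPKM in WT culms and 204 in WT embryos.

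Other members had a narrower range. LOC_Os10g35050 was listed in embryos only, where its 4621 FPKM made up 58.8% of the aquaporin sum of the WT. LOC_Os04g44570 (188 FPKM) and LOC_Os03g64330 (4.41 FPKM) were also listed in the embryo table alone. LOC_Os09g36930 was listed in shoots only, with 421 FPKM in the WT, and LOC_Os04g44060 in culms only, with 2.32 FPKM. A gene that a table does not list has no value here, which is not the same as a level of 0. Of the 22 members in all 4 tables, 14 had their highest WT level in shoots, 6 in culms and 2 in embryos. For 7 of these 22 the highest WT tissue exceeded the next by at least 2-fold: 3 in shoots, 3 in culms and 1 in embryos. The widest of these gaps was that of LOC_Os02g41860, with 268 FPKM in shoots, 31.8 in culms and 4.69 in embryos.

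**Figure D1:**
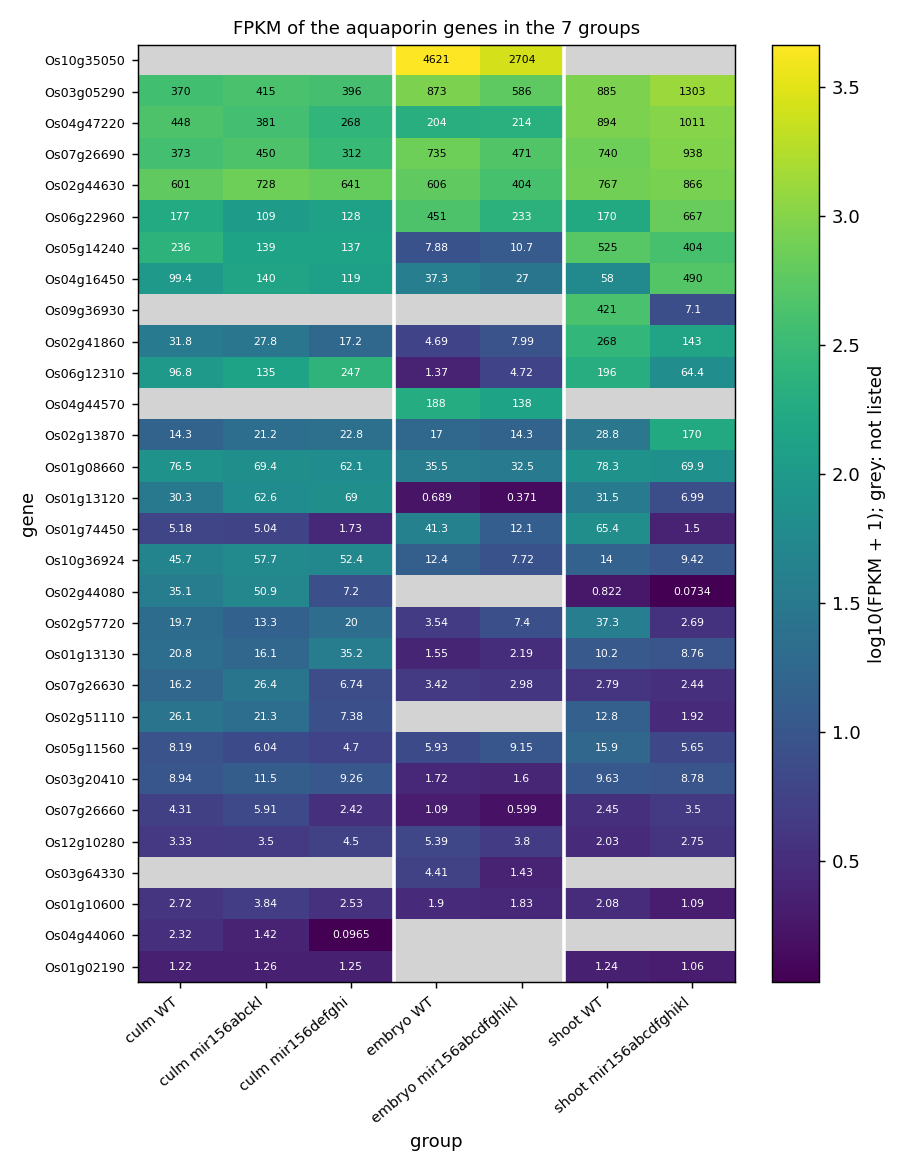
FPKM of the 30 aquaporin genes (rows, ordered by their highest value) in the 7 groups (columns), coloured by log10(FPKM + 1) with the FPKM printed in each cell. Grey cells are not listed in that table. LOC_Os10g35050 stands at the top with 4621 FPKM in WT embryos, and LOC_Os09g36930 goes from 421 FPKM in WT shoots to 7.10 in the mutant.

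Differences are given as the log2 ratio of mutant to WT after 1 FPKM was added to both, which keeps weakly expressed genes from passing on small differences and understates their change. A gene was counted as higher or lower past 2-fold where this log2 ratio was at least 1 or at most -1. By this count 14 of the 30 members (46.7%) passed in at least 1 comparison and 16 in none, beside 41.0% of all 26168 genes that passed in at least 1. LOC_Os01g13120, LOC_Os01g74450 and LOC_Os06g12310 passed in 3 comparisons each, and LOC_Os02g51110 in 2. Each of these passed in shoots, where 40.1% of all genes listed passed. How many of all genes passed in more than 1 comparison was not counted, and the culm comparisons share their WT. Passing repeatedly is therefore not read as a trait of these members. Over the 16 members that never passed, which include the leading member of each WT tissue, log2 ratios lay between -0.91 and 0.74. Among the 5 most abundant members of each WT tissue, only LOC_Os06g22960 passed, in shoots (log2 ratio 1.97).

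In culms of mir156abckl 25 of the 26 aquaporin genes were within 2-fold of the WT, as were most of all genes listed. Of the 26 members, 1 was higher past 2-fold and 0 were lower, or 3.85% of the members against 7.68% of all 23581 genes listed (3.17% higher and 4.5% lower). With a minimum of 10 FPKM in whichever group was higher it was 1 of 19, beside 7.57% of all genes at that level. An FPKM below that of the WT was found for 11 of the 26 members and 52.1% of all genes. The median log2 ratio was 0.11 over the members and -0.02 over all genes, and 0.27 and -0.04 under the 10 FPKM minimum. The member past 2-fold was LOC_Os01g13120 (chromosome 1, 7297671 to 7298971), with 30.3 FPKM in WT and 62.6 in mir156abckl, a log2 ratio of 1.02 that lies at the limit. The next highest log2 ratio was 0.67, for LOC_Os07g26630, and the lowest was -0.76, for LOC_Os05g14240, with 236 FPKM in WT and 139 in the mutant. The summed aquaporin FPKM was 2755 in WT and 2903 in mir156abckl.

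In culms of mir156defghi 7 of the 26 members passed 2-fold, 2 higher and 5 lower. This is 26.9% of the members, against 6.09% of all 23498 genes listed. By direction, 7.69% of the members were higher and 19.2% lower, against 2.65% and 3.44% of all genes. The median log2 ratio was -0.16 over the members and -0.02 over all genes. Over the 25 members with at least 1 FPKM in both groups the median was -0.07, with 2 higher and 4 lower past 2-fold. The summed aquaporin FPKM was 2740 in WT and 2574 in mir156defghi. As a share of the summed FPKM of all genes it was 0.399% in WT and 0.408% in the mutant, so the direction of the sum turned with the scale.

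The 2 higher members were LOC_Os06g12310 and LOC_Os01g13120. LOC_Os06g12310 (chromosome 6, 6648386 to 6653005) had 96.3 FPKM in WT and 247 in mir156defghi, a log2 ratio of 1.35. LOC_Os01g13120 had 30.1 and 69.0 FPKM (log2 ratio 1.17). In mir156abckl the log2 ratio of LOC_Os06g12310 was 0.48, so both genes were above the WT in both culm mutants.

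Among the 5 lower members, LOC_Os02g44080 (chromosome 2, 26608360 to 26609658) had the lowest log2 ratio, -2.13, with 34.9 FPKM in WT and 7.20 in mir156defghi. LOC_Os02g51110 (chromosome 2, 31266244 to 31269960) had 26.0 and 7.38 FPKM (log2 ratio -1.69). LOC_Os07g26630 (chromosome 7, 15358959 to 15360495) had 16.1 and 6.74 FPKM (log2 ratio -1.15). The remaining lower members were weakly expressed. LOC_Os01g74450 (chromosome 1, 43115741 to 43117231) had 5.15 FPKM in WT and 1.73 in mir156defghi, and LOC_Os04g44060 (chromosome 4, 26099272 to 26101782) had 2.31 and 0.0965. Without members under 10 FPKM in both groups, 2 members were higher and 3 lower of 18, which is 27.8% against 5.97% of all genes at that level.

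The culm comparisons share their WT, and the log2 ratios of each are therefore set side by side without a test. LOC_Os02g44080 had log2 ratios of 0.52 in mir156abckl and -2.13 in mir156defghi, and LOC_Os07g26630 had 0.67 and -1.15. LOC_Os02g51110 had -0.28 and -1.69, and LOC_Os01g13130 -0.35 and 0.74. Subtracting the log2 ratio of mir156abckl from that of mir156defghi gave a difference of at most -1 for 6 of the 26 members and of at least 1 for 1, LOC_Os01g13130. Over all 23226 genes in both tables these shares were 2.01% and 2.44%. Chlorophyll A-B binding protein genes summed to 634 FPKM in WT culms and 939 in mir156abckl, and to 631 and 1153 FPKM in the mir156defghi table. Of their 17 genes, 1 was higher past 2-fold in mir156abckl and 2 in mir156defghi, none was lower in either, and none was listed at 0. Whether the green tissue in the samples had a part in the aquaporin values was not tested. In bulk samples fewer cells of a type and less RNA per cell cannot be told apart.

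**Figure D2:**
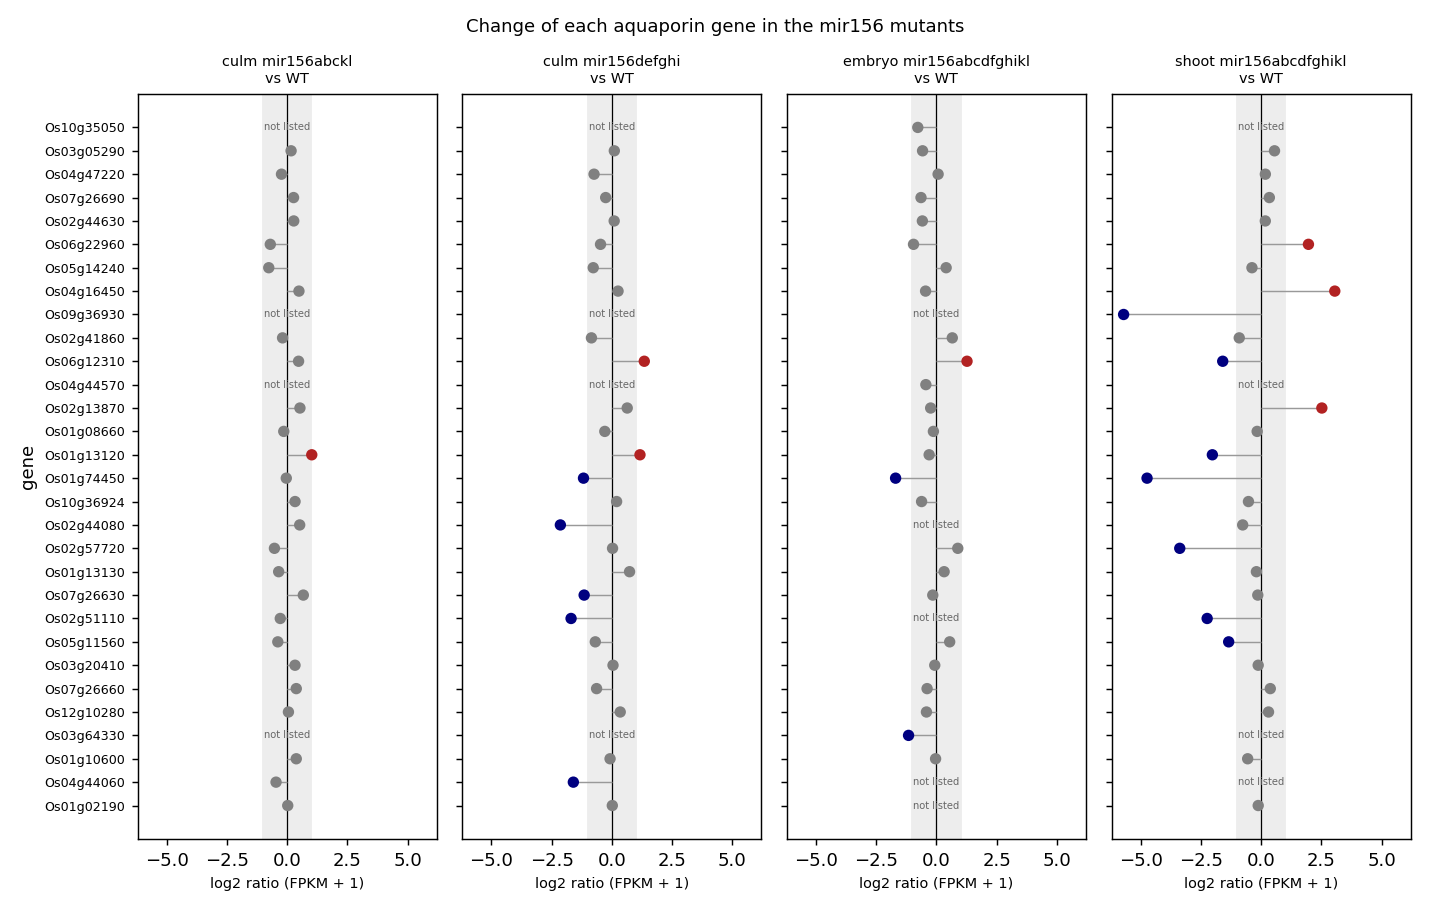
Log2 ratio of mutant to WT, with 1 FPKM added to both (x axis), for each aquaporin gene (y axis, in the order of the level map) in the 4 comparisons. Red and blue points are past 2-fold (outside the grey band), and genes that a table does not list are marked. The points spread least in mir156abckl culms (-0.76 to 1.02) and most in mir156abcdfghikl shoots (-5.70 to 3.06), where all genes listed also spread most.

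In fresh seed embryos of mir156abcdfghikl 18 of the 25 members had a lower FPKM than in the WT, among them all 5 of the most abundant ones, and 2 of the 18 were lower past 2-fold. Of all 21505 genes listed, 45.5% had a lower FPKM in the mutant. With at least 10 FPKM in whichever group was higher, it was 11 of 13 members, beside 5250 of 9644 genes. The median log2 ratio was -0.30 over the members and 0.03 over all genes, and -0.57 and -0.02 under a minimum of 10 FPKM. Past 2-fold, 1 member was higher and 2 were lower, or 12.0% of the members against 3.43% of all genes (1.97% higher and 1.46% lower). With a minimum of 10 FPKM in whichever group was higher, 0 of 13 members were higher and 1 was lower, or 7.69% beside 3.65% of all genes at that level.

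The message of the family as a whole was smaller in the mutant, with a summed FPKM of 7865 in WT and 4899 in mir156abcdfghikl. LOC_Os10g35050 accounted for most of it, with 4621 and 2704 FPKM (log2 ratio -0.77). Without it the sums were 3244 and 2195 FPKM, a ratio of 0.677 beside 0.623 with it. LOC_Os03g05290 had 873 and 586 FPKM, LOC_Os07g26690 735 and 471, and LOC_Os02g44630 606 and 404. LOC_Os06g22960 (chromosome 6, 13407318 to 13408859) had 451 FPKM in WT and 233 in the mutant, and its log2 ratio of -0.95 lay just within the limit. All 5 leading members were thus lower in the mutant, with log2 ratios from -0.95 to -0.57. The sixth, LOC_Os04g47220, had 204 and 214 FPKM.

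The members past 2-fold in embryos were less abundant. LOC_Os01g74450 had 41.3 FPKM in WT and 12.1 in mir156abcdfghikl (log2 ratio -1.69), and LOC_Os03g64330 (chromosome 3, 36360644 to 36361743) had 4.41 and 1.43 (log2 ratio -1.16). The higher member was LOC_Os06g12310, with 1.37 and 4.72 FPKM (log2 ratio 1.27). Below the limit, LOC_Os02g57720 had 3.54 and 7.40 FPKM (log2 ratio 0.89), which is over 2-fold when nothing is added to the FPKM (log2 ratio 1.06). Beside these values, the summed FPKM of the whole table was 817669 in WT and 697208 in the mutant, and that of aquaporins made up 0.962% of it in WT and 0.703% in the mutant. The glutelin and prolamin genes had a mutant to WT ratio of 0.778, with 1 of 34 higher and 4 lower past 2-fold and none listed at 0. The oleosin genes had a ratio of 0.825, with 0 of 6 past 2-fold. Late embryogenesis abundant genes had a ratio of 0.801, with 0 of 21 higher and 3 lower past 2-fold. Chlorophyll A-B binding protein genes went the other way, with 96.7 FPKM in WT and 259 in the mutant (ratio 2.68). Of these 16 genes, 13 were higher past 2-fold and 0 lower. The part of seed maturity, green tissue or carried-over endosperm in the aquaporin values was not tested.

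**Figure D3:**
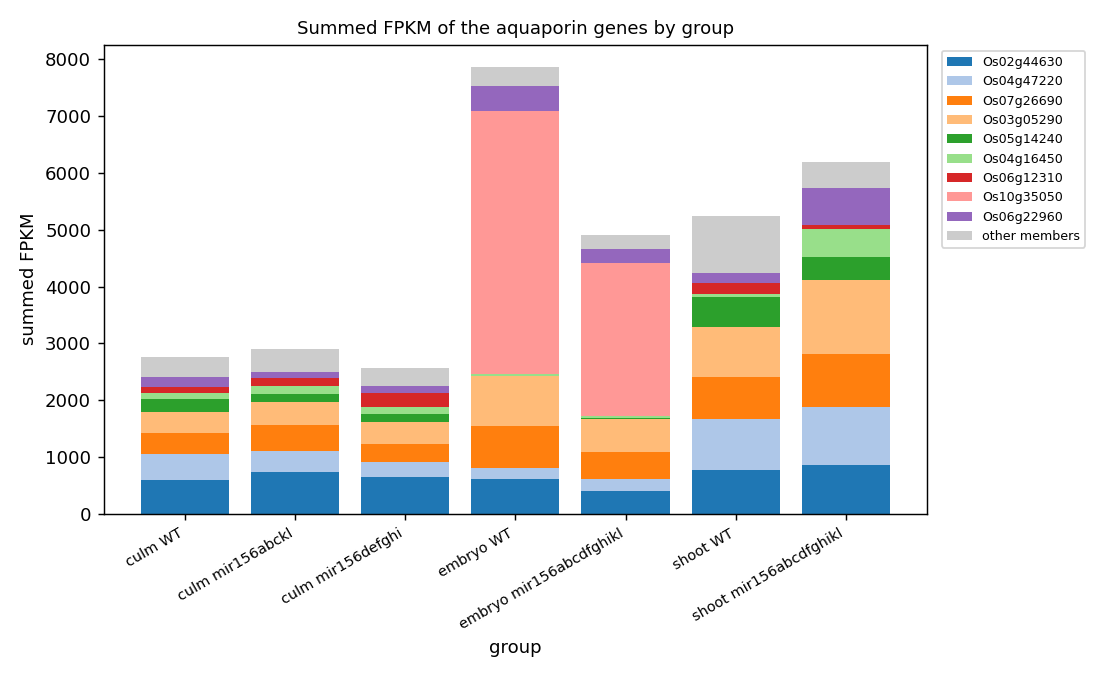
Summed FPKM of the aquaporin genes (y axis) in the 7 groups (x axis), stacked by gene. Genes among the 5 most abundant of any group have their own colour and the other members are grey. The sum was 7865 FPKM in WT embryos and 4899 in mutant embryos, most of it LOC_Os10g35050, while in shoots the sum was 5239 FPKM in WT and 6189 in the mutant.

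In shoots of mir156abcdfghikl the log2 ratios of the family had a wider range than in the other comparisons, in both directions. All genes listed also spread most in shoots, with 5th and 95th percentiles of -2.22 and 2.57. These were -0.94 and 0.82 in mir156abckl culms, -0.85 and 0.75 in mir156defghi culms, and -0.59 and 0.66 in embryos. The wider range is therefore not read as a trait of the family. Of the 26 members, 3 were higher past 2-fold and 7 lower, or 38.5% of the members. This is near the 40.1% of all 23283 genes listed that passed in this comparison, so the number of members past 2-fold does not set the family apart from other genes. With a minimum of 10 FPKM in whichever group was higher it was 10 of 19, or 52.6% beside 46.9%, and the median log2 ratio was then -0.38 over the members and 0.11 over all genes at that level. By direction, 11.5% of the members were higher against 21.4% of all genes, and 26.9% were lower against 18.7%. The median log2 ratio was -0.18 over the members and 0.13 over all genes, and 17 members had a lower FPKM in the mutant against 45.4% of all genes.

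The summed aquaporin FPKM went the other way, from 5239 in WT to 6189 in mir156abcdfghikl. The 3 members higher past 2-fold summed to 257 FPKM in WT and 1327 in the mutant, the 7 lower ones to 780.3 and 90.3, and the 5 most abundant of the WT to 3811 and 4522. Of these 5, 4 were higher in the mutant. LOC_Os03g05290 had 885 FPKM in WT and 1303 in the mutant, LOC_Os07g26690 had 740 and 938, LOC_Os04g47220 had 894 and 1011, and LOC_Os02g44630 had 767 and 866. The fifth, LOC_Os05g14240, was lower in the mutant, with 525 FPKM in WT and 404 in the mutant (log2 ratio -0.38). None of the 5 passed 2-fold (log2 ratios from -0.38 to 0.56). The aquaporin share of the summed FPKM of all genes was 0.644% in WT and 1.02% in the mutant. The total of the table was 814080 FPKM in WT and 603870 in the mutant.

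The 3 higher members were all of intermediate abundance in the WT. LOC_Os04g16450 (chromosome 4, 8948205 to 8950028) had the highest log2 ratio, 3.06, with 58.0 FPKM in WT and 490 in mir156abcdfghikl, and went from the twelfth to the sixth most abundant member. LOC_Os02g13870 (chromosome 2, 7515988 to 7519336) had 28.8 and 170 FPKM (log2 ratio 2.52). LOC_Os06g22960 had 170 and 667 FPKM (log2 ratio 1.97). Each of these genes was within 2-fold of the WT in the other comparisons that listed it.

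The lowest log2 ratio among the 7 lower members, -5.70, was that of LOC_Os09g36930 (chromosome 9, 21310128 to 21311548). It had 421 FPKM in WT shoots, the sixth highest level of the family, and 7.10 in mir156abcdfghikl, so that its WT level was 59.3 times that of the mutant. Only 0.0472% of all genes listed in shoots had a lower log2 ratio. LOC_Os01g74450 had 65.4 and 1.501 FPKM (log2 ratio -4.73), and LOC_Os02g57720 (chromosome 2, 35349672 to 35351454) had 37.3 and 2.69 (log2 ratio -3.37). All 3 had at least 37.3 FPKM in the WT and at most 7.10 in the mutant.

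The other 4 lower members had log2 ratios between -2.24 and -1.34. LOC_Os02g51110 had 12.8 FPKM in WT and 1.92 in the mutant (log2 ratio -2.24), and LOC_Os01g13120 had 31.5 and 6.99 (log2 ratio -2.02). LOC_Os06g12310 had 196 and 64.4 FPKM (log2 ratio -1.59), and LOC_Os05g11560 (chromosome 5, 6539816 to 6544810) had 15.9 and 5.65 (log2 ratio -1.34). Just within the limit was LOC_Os02g41860, with 268 and 143 FPKM (log2 ratio -0.91). LOC_Os02g44080 had 0.822 FPKM in WT shoots and 0.0734 in the mutant, levels too low for its ratio to be read. The chlorophyll A-B binding protein genes, of which 16 of 17 were lower past 2-fold and none was listed at 0, had a ratio of 0.167 in the same comparison. The knotted-type homeobox genes, with 2 of 6 higher and 2 lower, summed to 490 FPKM in WT and 182.6 in the mutant, and the part of leaf and meristem content in the aquaporin values was not tested.

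**Figure D4:**
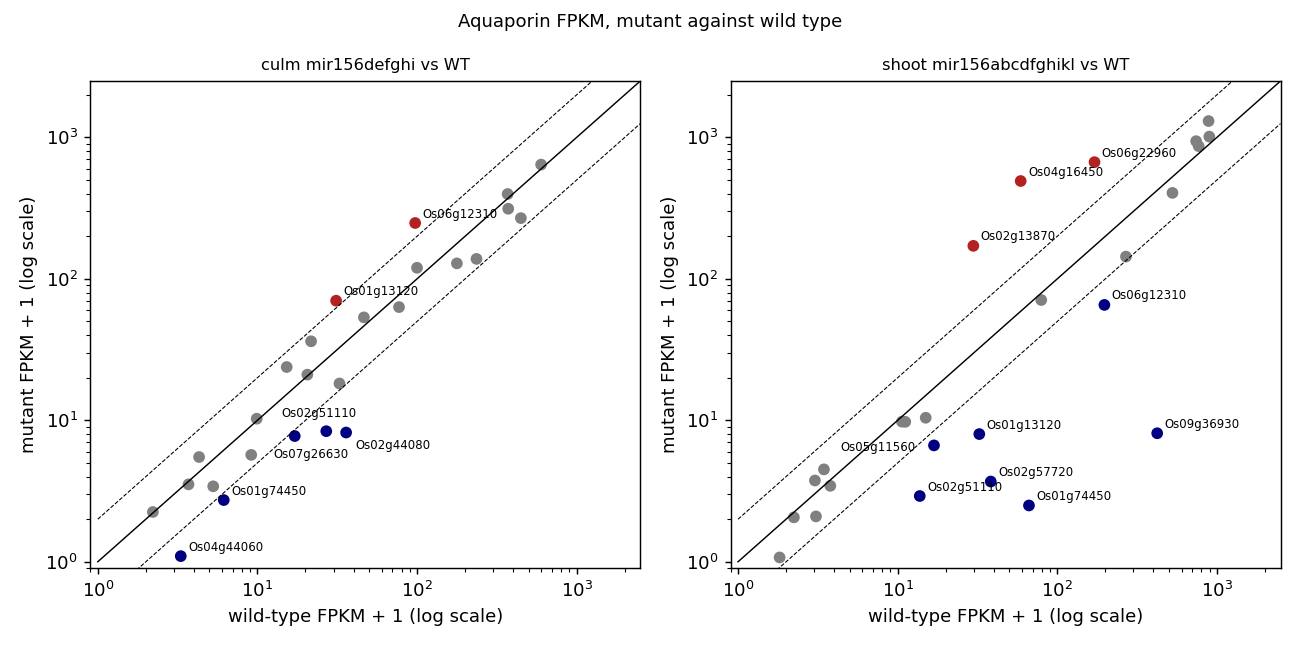
FPKM + 1 of the aquaporin genes in the mutant (y axis) against WT (x axis), both on log scales, in mir156defghi culms (left) and mir156abcdfghikl shoots (right). The solid line marks equal values and the dashed lines 2-fold, and the genes past 2-fold are named (red higher, blue lower). In shoots the 5 most abundant members of the WT lie near the solid line, while LOC_Os09g36930 lies 59.3-fold below it in FPKM.

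The same genotype, mir156abcdfghikl, was measured in embryos and shoots, each with its own WT. The labels give different codes for the mutant, C403 in embryos and D216 in shoots, so line and tissue cannot be told apart. Of the 22 members in both tables, 7 were lower in both tissues, 1 was higher in both, 8 were lower in embryos and higher in shoots, and 6 the reverse. Over all 19866 genes in both tables these shares were 19.3% lower in both, 32.6% higher in both, 25.1% lower in embryos and higher in shoots, and 23.0% the reverse, beside 31.8%, 4.55%, 36.4% and 27.3% of the members. LOC_Os01g74450 was the only member past 2-fold in the same direction in both tissues. Of all 19866 genes, 58 were lower past 2-fold in both tissues and 119 were higher in both. LOC_Os01g74450 was lower in embryos, shoots and mir156defghi culms, and in mir156abckl culms it had 5.18 FPKM in WT and 5.04 in the mutant. LOC_Os06g12310 was higher past 2-fold in mutant embryos and lower in mutant shoots, a pattern found for 114 of all 19866 genes. LOC_Os06g22960 had log2 ratios of -0.95 in embryos and 1.97 in shoots.

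Some members lie side by side in the genome (TIGR release 7). Where neighbours are near-identical copies, shared reads could be split between them and their single values would be uncertain. Their sequences were not compared here. LOC_Os01g13120 and LOC_Os01g13130 are 3395 bp apart on chromosome 1. Their log2 ratios were 1.02 and -0.35 in mir156abckl culms, 1.17 and 0.74 in mir156defghi culms, and -2.02 and -0.19 in shoots. In embryos, at levels of at most 2.19 FPKM, they were -0.30 and 0.32. The neighbours thus differed in sign or in size. On chromosome 7, LOC_Os07g26660 lies 16419 bp from LOC_Os07g26630 and 28148 bp from LOC_Os07g26690. Of this trio LOC_Os07g26690 was by far the most abundant, with 373 FPKM in WT culms beside 16.2 for LOC_Os07g26630 and 4.31 for LOC_Os07g26660. In mir156defghi culms all 3 were lower than the WT, with log2 ratios of -1.15 (LOC_Os07g26630), -0.63 (LOC_Os07g26660) and -0.25 (LOC_Os07g26690). In mir156abckl culms all 3 were higher, with 0.67, 0.38 and 0.27 in the same order. The values were -0.15, -0.39 and -0.64 in embryos, and -0.14, 0.38 and 0.34 in shoots. The 30 members were spread over 10 chromosomes, with 6 each on chromosomes 1 and 2, and their loci spanned 1100 to 7105 bp.

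The SIP2-1 gene LOC_Os03g20410 was within 2-fold in all 4 comparisons. It had 8.94 FPKM in WT culms, 1.72 in WT embryos and 9.63 in WT shoots, and its log2 ratios were 0.33 in mir156abckl culms, 0.05 in mir156defghi culms, -0.07 in embryos and -0.12 in shoots.

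Water follows osmotic gradients that proton pumps and potassium transport help to set, and genes described as such were counted beside the aquaporins. In mir156abcdfghikl shoots, 13 of 31 genes for potassium channels and transporters were lower past 2-fold and 1 was higher, with a median log2 ratio of -0.59, beside 18.7% lower and 21.4% higher of all genes. Of the 5 plasma membrane proton pump genes, which energize uptake into the cell, 3 were lower and 1 higher. Of the 24 genes for vacuolar proton pumps, which acidify the vacuole, 4 were higher and 1 was lower, and their median log2 ratio was 0.21. In embryos 0 of 23 vacuolar and 0 of 5 plasma membrane pump genes passed 2-fold, and 1 of 23 potassium transport genes was lower, beside 3.43% of all genes past 2-fold. An FPKM below the WT was found in embryos for 18 of the 23 vacuolar pump genes (median log2 ratio -0.14), beside 45.5% of all genes. In mir156defghi culms 22 of 23 vacuolar pump genes had a lower FPKM than the WT, by a median log2 ratio of -0.29 and with 0 past 2-fold, beside 52.8% of all genes. There 0 of 5 plasma membrane pump genes passed 2-fold (median -0.20), and 1 of 30 potassium transport genes was higher and 2 were lower (median -0.16), beside 6.09% of all genes past 2-fold. In mir156abckl culms 18 of the 23 vacuolar pump genes had a lower FPKM, beside 52.1% of all genes, with a median of -0.18 and 2 lower past 2-fold. In the same comparison 0 of 5 plasma membrane pump genes passed 2-fold (median -0.31) and 1 of 31 potassium transport genes was lower (median -0.13), beside 7.68% of all genes.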

How the data were processed

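The authors sequenced stranded mRNA libraries, dropped reads of low quality or with adapters, and mapped the remaining ones with Hisat2 on TIGR release 7. FPKM came from Cufflinks (2.2.1 per the labels). The deposited tables hold 1 FPKM value per group, scaled within each comparison. Their further columns hold the cuffdiff log2 ratio, p-value and q-value of the authors' own comparison and were not used. Depth per sample is unknown, the tables hold no value per repeat and the p-values were left unused, so no precision is given. Samples were grouped by their titles. Log2 ratios with 1 FPKM added to both groups were obtained in Python 3.11.15 (pandas 2.3.3, numpy 2.4.6), with plots by matplotlib 3.10.9. The ratio of 2 was taken from the paper, but was applied to FPKM + 1 and without its limit on the false discovery rate. The counting code was run on simulated data with planted differences well past the limit and little noise. This checks the code only and gives no precision for the values. Values are given for members past 2-fold, the 5 most abundant of each WT, the extremes of each comparison and those next to the limit, and other members named for a stated contrast were chosen after their values were seen. The members and lists were chosen with earlier results of these data known. The RefSeq gene table in use is of another assembly and matched 0 of the 30 identifiers, so no names or sequences were taken from it. The alternatives tried were other added values, minimum levels, centring, a limit of 1.5 and sums as shares.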

Additional observations from a re-analysis of the deposited data

Results flagged for a closer look

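LOC_Os06g12310 lay past 2-fold on opposite sides of the WT in 2 tissues of the same genotype. In mir156abcdfghikl its log2 ratio to the WT was 1.27 in embryos and -1.59 in shoots. Its embryo levels were 1.37 FPKM in WT and 4.72 in the mutant, so that under a minimum of 10 FPKM it is not counted there. Of all 19866 genes in both tables, 114 were higher in embryos and lower in shoots past 2-fold, and 69 the reverse. This difference was not tested here, since there is 1 value per group and the p-values of the authors' own comparison were left unused. The different codes of the mutant leave line and tissue confounded.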

How the results depend on the processing

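With nothing added and with 0.1 FPKM added, 2 members were higher in embryos in place of 1, the further one being LOC_Os02g57720, and the embryo median was -0.44 in both. With a minimum of 10 FPKM in the higher group, 3 members were lower in mir156defghi culms, and in embryos 0 were higher and 1 lower. The median log2 ratio was then 0.27 in mir156abckl culms, -0.57 in embryos and -0.38 in shoots. This minimum leaves fewer members. With at least 1 FPKM in both groups, the mir156defghi median was -0.07 in place of -0.16, with 4 members lower in place of 5. With a ratio limit of 1.5, 2 members were higher and 2 lower in mir156abckl culms, 4 and 10 in mir156defghi culms, and 3 and 6 in embryos. As a share of the summed FPKM of all genes, the mutant to WT ratio of the aquaporin sum was 1.14 in mir156abckl culms (1.05 as a sum), 0.731 in embryos (0.623) and 1.59 in shoots (1.18), and it turned from 0.939 to 1.02 in mir156defghi culms, since the column totals differ. Without its most abundant member the embryo ratio was 0.677. Centring used the median of the genes that reached 1 FPKM in the WT and in the mutant alike. This centre was 0.0831 in shoots, beside a median of 0.129 over all genes there. LOC_Os02g41860 in shoots then stood at -0.989, and subtracting 0.129 instead would take it past the limit. With the centre used no count moved by over 1.5 times. The members picked by the naming rule given above, which leaves out LOC_Os03g20410, LOC_Os04g44570 and LOC_Os07g26660, had 75 log2 ratios. With this centring all 75 stayed on their side of the limit. With nothing or 0.1 FPKM added, 73 of the 75 did, the exceptions being LOC_Os02g57720 in embryos (1.06 and 1.04) and LOC_Os02g44080 in shoots (-3.49 and -2.41). No member entry named more than 1 locus, so that alternative was not run. No paired analysis was possible because the deposited columns hold no value per repeat, and for the same reason no repeat could be left out.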
